A study of Mus musculus with 12 samples.

Results

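The regions described here are those whose chromatin was less accessible in Hivep3-/- than in C57BL/6 cells of each of 3 subsets of thymic invariant natural killer T (iNKT) cells. They were selected on the measured values themselves. A region of the autosomes was taken when the mean of the 2 Hivep3-/- libraries was below the mean of the 2 C57BL/6 libraries by at least 0.585 on the log2 scale (1.5-fold) in iNKT1, iNKT2 and iNKT17 cells alike, and when the highest of the 6 group means was at least 2.32 (5 normalised insertions per kb). This gave 607 of the 62165 autosomal regions, or 0.976%, in a table of 63309 regions. The fall of a region is its C57BL/6 mean minus its Hivep3-/- mean. The falls are the reason these regions are here and are given as a description, without a test. The same rule turned round gave 563 regions that were higher in Hivep3-/- cells, and these serve below as a comparison.

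Accessibility was measured by ATAC-seq, in which a transposase inserts sequencing adapters into open chromatin. The cells came from the thymi of untreated C57BL/6 mice and of Hivep3-/- mice backcrossed to C57BL/6, 8 to 9 weeks old, with 2 libraries for each genotype and subset and 12 libraries in all. The protocol has the subsets sorted from pooled thymi, mixed for the transposase reaction and separated again on ICOS and CD138, while the sample titles number single mice. It is not stated that the libraries of a group were independent mice, so the p-values below measure the spread between these libraries, which may be technical. Subsets that shared a reaction do not give separate observations of a fall, and genotype and reaction cannot be told apart. The study reports less Icos transcript and ICOS protein in Hivep3-/- cells. Whether this shifted the second sort was not tested.

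iNKT cells are T cells with a semi-invariant receptor that recognises lipids on CD1d, and they acquire effector programs in the thymus. iNKT1 cells use T-bet and produce IFN-γ, iNKT2 cells use GATA3 and PLZF and produce IL-4, and iNKT17 cells produce IL-17. HIVEP3 is a large zinc finger protein that binds DNA and also acts as an adapter, and open regions away from promoters are often enhancers, which are bound by cell type-specific transcription factors.

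The strongest members are shown first by their sequence, read from GRCm38.p6 on the plus strand. The 2 members with the largest mean fall over the subsets lie between genes on chromosome 5 and share a run of 320 identical bases in the same orientation, with starts 6988 bp apart. The runs lie at chr5:64030834-64031153 and chr5:64037822-64038141. The lines below show where the unlike flanks (30 bases, lower case) give way to the first 30 bases of the shared run (capitals).
chromosome 5, near Rell1, chr5:64030804-64030863: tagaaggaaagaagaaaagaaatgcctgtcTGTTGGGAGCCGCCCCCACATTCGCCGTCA
chromosome 5, near Pgm2, chr5:64037792-64037851: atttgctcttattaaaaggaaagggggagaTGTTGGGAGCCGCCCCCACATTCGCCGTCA

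Next are the central 300 bases of 2 members: the member in the Wwox gene, which follows them by the smallest of its 3 falls (its weakest fall), and the member with the highest mean over the 6 C57BL/6 libraries (25.9 kb from Il10). Capitals mark letters that match, on either strand, the E-box CAGNTG or the bZIP letters TGANTCA. The 2 motifs overlap at 1 place in the member near Il10.
Wwox intron, chr8:115136732-115137031: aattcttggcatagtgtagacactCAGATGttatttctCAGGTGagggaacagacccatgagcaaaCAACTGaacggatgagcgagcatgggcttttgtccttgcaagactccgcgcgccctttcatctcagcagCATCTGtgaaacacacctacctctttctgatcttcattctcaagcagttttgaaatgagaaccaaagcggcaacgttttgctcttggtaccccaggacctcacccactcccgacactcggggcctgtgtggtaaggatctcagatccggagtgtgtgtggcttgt
near Il10, chr1:130993762-130994061: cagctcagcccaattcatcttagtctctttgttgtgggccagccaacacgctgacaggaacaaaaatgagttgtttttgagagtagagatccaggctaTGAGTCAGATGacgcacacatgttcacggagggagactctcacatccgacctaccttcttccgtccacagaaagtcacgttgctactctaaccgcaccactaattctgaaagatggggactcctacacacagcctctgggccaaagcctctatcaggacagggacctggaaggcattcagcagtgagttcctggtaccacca

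The last set shows the motif whose share differed by the most percentage points between members and all autosomal regions among the 13 searched, the GATA letters AGATAA on either strand. The windows are those of the 8 members with such a match and the largest weakest fall among the sequences reported here. A member whose sequence is not reported here was passed over. Each window is at the match nearest the centre of the region, with the match in capitals.
BC004004 exon, chr17:29283324-29283349: ctaaccgctgTTATCTgattgggctg
Akap6 intron, chr12:52879740-52879765: aatcagaaggTTATCTtcgtggcgta
Pus7 exon, chr5:23746431-23746456: tgcttggggtAGATAAcatcaaaccc
Akap6 intron, another region, chr12:52882690-52882715: caggaaagtcAGATAAaagtcccaga
near Rims2, chr15:39172909-39172934: tcagtagaatAGATAAcagtcatggt
Akap6 exon, chr12:52880998-52881023: aagcaggtctTTATCTaggatctcgg
Bcl2l13 intron, chr6:120854514-120854539: cttacaggcaAGATAAaagagaacga
Vdr exon, near Hdac7, chr15:97854628-97854653: gatttgtcatTTATCTcaaccatctc

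The normalisation gave all libraries the same median, so the depth of a library is not shown. The Hivep3-/- iNKT17 libraries were at the low end of the number of distinct values up to the median, with 85 and 73 where the others had 91 to 491. These 2 libraries also held most of the members at the lowest value of a library, 70 and 101, against at most 16 in any other. In all, 152 members had at least 1 Hivep3-/- library at that value and 9 a C57BL/6 library. Without the first or the second of them the rule gave 601 and 581 regions, of which 511 and 486 are members. The promoters of Il23r and Ccr6 read 4.86 to 5.14 in iNKT17 cells of both genotypes and at most -0.34 in the other subsets. Of the 4 iNKT2 markers, the promoters of Izumo1r (6.36 and 6.03) and Il4 (5.73 and 5.78) were highest in iNKT2 cells of both genotypes. Those of Gata3 (6.63, 6.51 and 6.36 in C57BL/6 iNKT1, iNKT2 and iNKT17 cells) and Il17rb (5.11, 4.93 and 4.79) were not. At Ifng, an iNKT1 marker, the promoter read 4.81 in C57BL/6 and 2.73 in Hivep3-/- iNKT2 cells, while Klrd1 read 1.93 and 1.81 and Tbx21 4.58 and 4.28. The part of this in the iNKT2 falls was not tested. Of the markers of double-positive thymocytes and erythroid cells, 0 of 5 and 0 of 3 had a promoter region in the table. The B cell list had 2 of 5 (Pax5 and Ebf1, 2.74 to 4.61), the myeloid list 2 of 5 (Spi1 and Cd14, 3.83 to 5.29) and the epithelial list 1 of 4 (Epcam, 3.01 to 3.94). At Hivep3 itself 21 regions were listed, none of them a member. Their median difference (C57BL/6 minus Hivep3-/-, averaged over the subsets) was -0.19, higher in Hivep3-/- cells, and 3 of the 21 were lower there. Which part of the gene is deleted is not given in the sources used here, so these regions do not check the genotype.

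In C57BL/6 cells the median level of the 607 members was 2.24 for iNKT1, 3.41 for iNKT2 and 2.18 for iNKT17, on the log2 scale of normalised insertions per kb. In Hivep3-/- cells it was 0.92, 2.08 and 0.87. The medians of replicate libraries lay close together, at 3.47 and 3.37 in C57BL/6 iNKT2 cells and at 0.99 and 0.82 in Hivep3-/- iNKT17 cells, the widest pair, while the median of all autosomal regions was 3.90 in every library. Of the members, 294 reached 5 insertions per kb in C57BL/6 iNKT1 cells, 512 in iNKT2 cells and 289 in iNKT17 cells, and 155, 257 and 132 did so in Hivep3-/- cells. These are bulk libraries, so fewer cells with an open region and a less open region in each cell cannot be told apart.

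**Figure D1:**
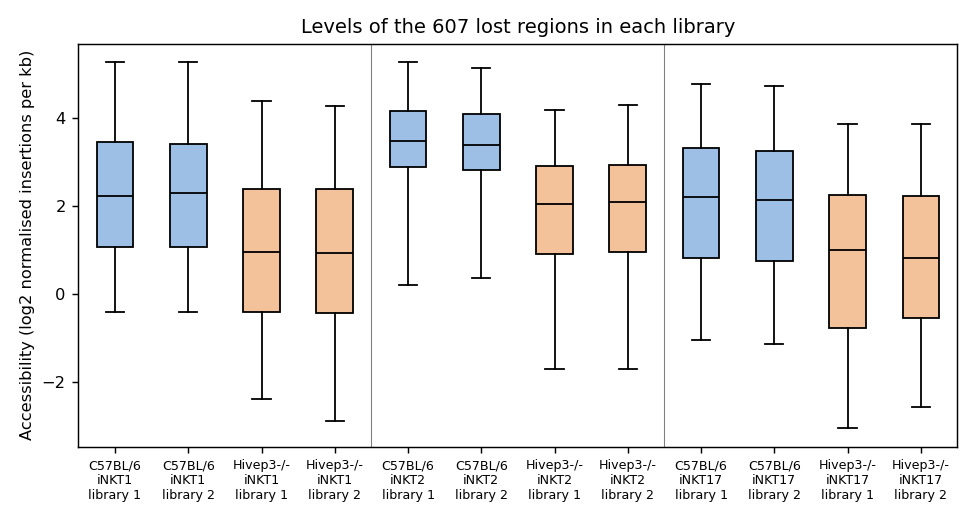
Level of the 607 members in each of the 12 libraries (vertical axis, log2 normalised insertions per kb), by subset, with C57BL/6 in blue and Hivep3-/- in orange. Boxes span the quartiles with the median as a line, and whiskers the 5th to the 95th percentile; the medians are highest in the C57BL/6 iNKT2 libraries (3.47 and 3.37) and lowest in the second Hivep3-/- iNKT17 library (0.82).

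The median fall of the members was 1.14 for iNKT1, 1.21 for iNKT2 and 1.09 for iNKT17, and its largest values were 7.06, 6.60 and 5.27. Over all autosomal regions the median difference was 0.021, -0.002 and 0.011. The weakest fall of a member, the smallest of its 3 values, had a median of 0.80, and 175 members fell at least 2-fold and 42 at least 3-fold in each subset. The largest of the 3 falls was in iNKT2 cells for 249 members (41.0%), in iNKT1 cells for 199 and in iNKT17 cells for 159. Within a member the largest and the smallest fall lay a median of 0.75 apart. At the edge of the rule, the member with the smallest weakest fall, near Golgb1, had 0.5855, and the closest region left out, near Mad1l1, had 0.5850. The next members inside, near Plcb2 and Kirrel3, had 0.5861 and 0.5867, and the next regions outside, near Nfrkb and Uggt2, had 0.5847 and 0.5839.

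In 458 members (75.5%) both Hivep3-/- libraries lay below both C57BL/6 libraries in each of the 3 subsets, where 3.48% of all autosomal regions did so. In 53 members all 6 Hivep3-/- libraries lay below all 6 C57BL/6 libraries, against 0.219% of autosomal regions. With limma and the thresholds of the study (adjusted p under 0.1 and 3-fold), 46 of 294 tested members were called lower in Hivep3-/- iNKT1 cells, where 0.264% of all tested regions were called. In iNKT2 cells it was 158 of 513, against 1.20% of all tested regions. In iNKT17 cells it was 41 of 290, against 0.138%, and on the average of the subsets 156 of 607, against 0.327%. These contrasts chose the members, so nothing is read from the counts. They were 30 in iNKT1 cells without the second Hivep3-/- iNKT1 library and 27 in iNKT17 cells without the first C57BL/6 iNKT17 library.

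A choice made in part of the libraries can be described in the rest. The libraries of a group may be technical replicates, and the numbers pair the genotypes arbitrarily. A repeated fall is therefore no evidence from independent mice. When the rule was applied to the libraries of replicate 1 alone, it took 641 regions. In the libraries of replicate 2, 238 of these (37.1%) again fell by at least 0.585 in all 3 subsets, compared with 1.06% of all autosomal regions. The 641 regions were lower in all 3 subsets in 70.5% of cases, against 17.0% of all autosomal regions. Their median falls were 0.96, 0.99 and 0.76 for iNKT1, iNKT2 and iNKT17 cells, below the 1.10, 1.23 and 1.15 in the libraries that chose them. With the replicates exchanged, 237 of 658 regions (36.0%) fell again, and the median falls were 0.93, 1.16 and 0.77.

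The strongest member, between Rell1 and Pgm2 at chr5:64037740-64038239, was close to the lowest value that a library holds in Hivep3-/- cells. C57BL/6 libraries read 3.66 and 3.03 in iNKT1, 2.06 and 1.97 in iNKT2 and 2.60 and 2.30 in iNKT17 cells. Hivep3-/- libraries read -3.12 and -4.31, -3.79 and -4.05, and -3.06 and -2.58. The genotypes did not overlap, and 5 of the 6 Hivep3-/- values were the lowest value of their library, so the size of the fall depends on that floor.

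The neighbouring member at chr5:64030654-64031153, nearest to Rell1, was not at the floor. It read 4.91 and 4.39 in C57BL/6 iNKT1, 4.11 and 3.57 in iNKT2 and 4.80 and 4.61 in iNKT17 cells. In Hivep3-/- cells it read -1.0 and -1.38, -2.43 and -2.39, and -0.10 and -0.55. Its falls of 5.83, 6.25 and 5.03 were again without overlap. These 2 members hold the shared run printed above: 6 and 10 of the 10 pieces of 50 bases that make up each region occur more than once in the genome, with up to 911 and 1518 copies, and 70.4% and 100% of their bases are soft-masked as repeats. Reads had been trimmed to 50 bp, and how reads with several places were mapped at this locus was not tested. Over all 607 members, 36 (5.9%) had a repeated piece, against 8.4% of autosomal regions.

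Members at this locus were not limited to the repeat. The locus held 6 members between 64029623 and 64070497, which were all of the table's regions in these 40.9 kb, with a mean fall of 3.07. The other 4 members, of which at most 7.6% of the bases were soft-masked, had smaller mean falls. The region at chr5:64029623-64030122 had falls of 3.02, 2.50 and 1.94. The region at chr5:64040664-64041163, second by the mean over the 6 C57BL/6 libraries, at 6.27, had falls of 1.68, 1.77 and 1.5. Its libraries spanned 5.84 to 6.51 in C57BL/6 and 4.47 to 4.80 in Hivep3-/- cells.

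The member in an intron of Wwox, a large gene for an oxidoreductase, lies at chr8:115136632-115137131, 425 kb from the nearest transcription start. It read 2.08 and 1.82 in C57BL/6 iNKT1, 3.82 and 3.10 in iNKT2 and 1.87 and 1.25 in iNKT17 cells. In Hivep3-/- cells it read -1.0 and -2.89, -0.88 and 0.84, and -3.06 and -1.06. The genotypes did not overlap in any subset, although the Hivep3-/- replicates lay further apart than the C57BL/6 ones. C57BL/6 iNKT2 cells were higher than iNKT17 cells by 1.90 ± 0.79 (adjusted p = 0.0651).

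The member in an exon of BC004004, at chr17:29283130-29283629, differed most between subsets among the 8 strongest. C57BL/6 libraries read 5.40 and 5.69 in iNKT1, 4.84 and 4.77 in iNKT2 and 1.23 and 0.64 in iNKT17 cells. Hivep3-/- libraries read 2.24 and 2.45, -0.40 and -1.38, and -3.06 and -2.58, the last pair being the floor of both libraries. It was thus an iNKT1 and iNKT2 region in C57BL/6 mice, with a difference of 4.61 ± 0.38 (SE) between iNKT1 and iNKT17 cells (limma, adjusted p = 3.73e-07) and of 3.88 ± 0.38 between iNKT2 and iNKT17 cells (adjusted p = 2.88e-06).

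A pair of members in Armc8, which encodes a subunit of a ubiquitin ligase complex, stood next to each other on chromosome 9. The exon member at chr9:99504920-99505419 read 2.63 and 2.69 in C57BL/6 iNKT1, 3.84 and 3.74 in iNKT2 and 0.28 and 0.44 in iNKT17 cells. In Hivep3-/- cells it read -2.39 and -0.39, 0.78 and -0.41, and -3.06 and -2.58. The intron member at chr9:99505784-99506283 had falls of 3.02, 4.19 and 2.88. Both were higher in C57BL/6 iNKT2 than iNKT17 cells, by 3.43 ± 0.63 (adjusted p = 0.00055) and 2.50 ± 0.53 (adjusted p = 0.00147). The last of the 8 strongest members, 19.1 kb from Rims2, a gene of the synapse, had falls of 2.85, 3.23 and 3.75. Like the chromosome 5 pair and unlike the 5 others, it was lowest in C57BL/6 iNKT2 cells, at 0.84 and 1.48, but no subset contrast of these 3 members passed both thresholds.

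**Figure D2:**
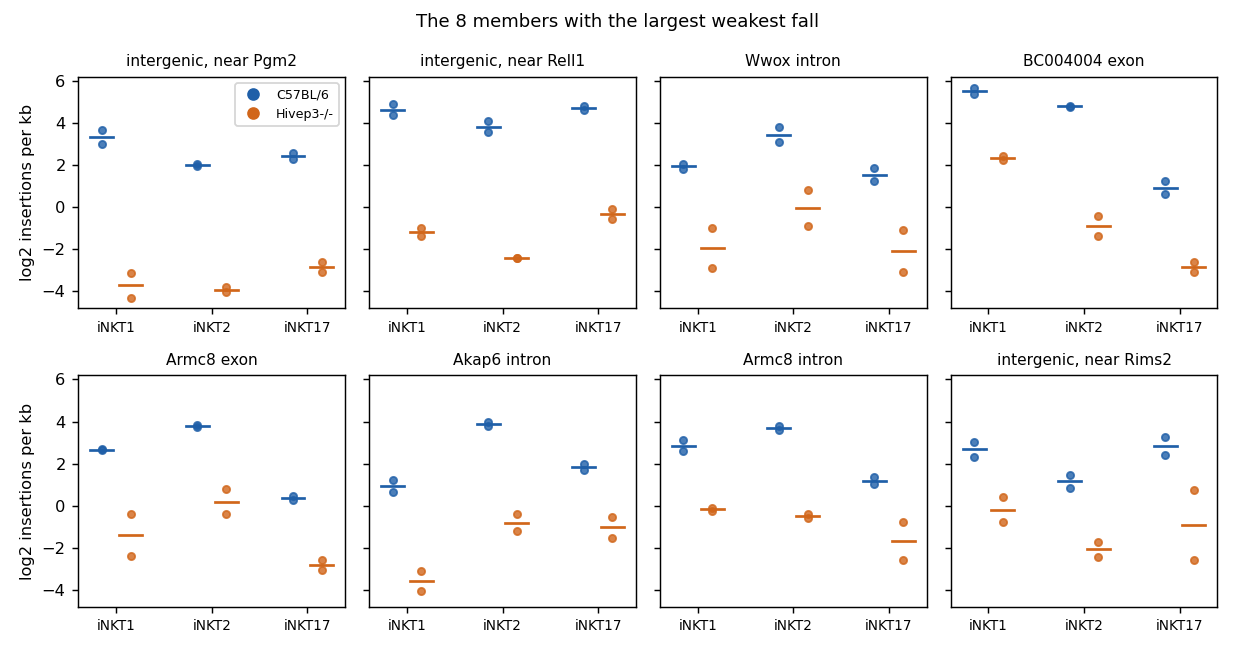
The 8 members with the largest weakest fall, each panel giving the 2 libraries (points) and their mean (line) for C57BL/6 (blue) and Hivep3-/- (orange) cells of each subset, on the log2 scale of insertions per kb. In each panel and each subset both orange points lie below both blue points. For the region near Pgm2 the falls are 7.06, 5.93 and 5.27, with 5 of 6 orange points at the lowest value of their library, and for that near Rell1 5.83, 6.25 and 5.03.

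Some members were neighbours. With a gap of at most 100 kb, 250 of 607 (41.2%) stood in 96 chains of 2 or more, and 13 chains held at least 4 members. The 563 regions of the opposite direction did the same, with 43.9% in chains. The share for an equal number of other autosomal regions was not computed, so 41.2% is a description only. The table's other regions near a member also tended to be lower in Hivep3-/- cells. Those within 2 kb had a median difference, averaged over the subsets, of 0.49, and 60.1% of the 178 were lower in all 3 subsets. The median was 0.19 at 2 to 10 kb, 0.09 at 10 to 50 kb and 0.03 at 50 to 200 kb, against 0.008 for all autosomal regions that are no members, of which 17.5% were lower in all 3 subsets.

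**Figure D3:**
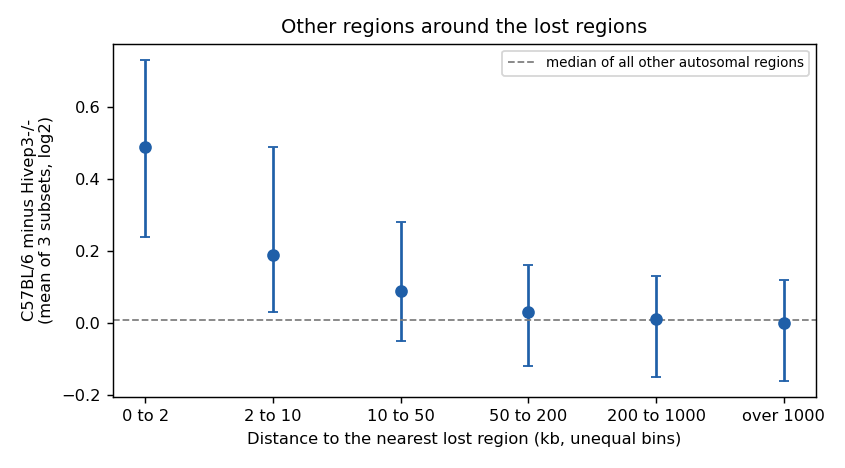
Difference between C57BL/6 and Hivep3-/- cells (vertical axis, mean of the 3 subsets, log2) of autosomal regions that are no members, by distance to the nearest member (horizontal axis, kb, unequal bins). Points are medians and bars the quartiles; the median drops from 0.49 within 2 kb to 0.03 at 50 to 200 kb, near the dashed median of all of them (0.008).

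The chain with the most members lay nearest to Plxnc1, a semaphorin receptor gene, with 8 members among the 12 regions between 94992917 and 95087283 on chromosome 10. The other 4 regions were lower in Hivep3-/- cells too, with a median of 0.81. Its member with the largest weakest fall, at chr10:95041058-95041557, read 3.13 and 3.17 in C57BL/6 iNKT1 and 1.14 and 1.75 in Hivep3-/- iNKT1 cells. In iNKT2 and iNKT17 cells the falls were 1.38 and 1.43, and one Hivep3-/- iNKT17 library (0.99) lay above one of C57BL/6 (0.97). The next, at chr10:94992917-94993416, was an iNKT1 region, at 3.54 and 2.88 in C57BL/6 iNKT1 cells, with differences of 3.42 ± 0.63 to iNKT2 (adjusted p = 0.000545) and 4.04 ± 0.63 to iNKT17 cells (adjusted p = 0.000107). The chain also held members that were even across subsets. One of them, chosen after its values were seen, at chr10:95086784-95087283, read 3.86 to 4.29 in all C57BL/6 libraries and 3.11 to 3.62 in all Hivep3-/- libraries.

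The chain in Akap6, which encodes an anchoring protein for protein kinase A, held 6 of the 7 regions in 19.0 kb of chromosome 12, with a mean fall of 3.24, and the remaining region had a mean fall of 3.03. The strongest, at chr12:52874235-52874734, read 0.67 and 1.21 in C57BL/6 iNKT1, 3.8 and 4.0 in iNKT2 and 1.71 and 2.00 in iNKT17 cells. Hivep3-/- libraries read -4.05 and -3.12, -1.22 and -0.41, and -1.52 and -0.55, without overlap in any subset. In C57BL/6 mice this region differed by -2.96 ± 0.58 between iNKT1 and iNKT2 cells (adjusted p = 0.00082) and by 2.04 ± 0.58 between iNKT2 and iNKT17 cells (adjusted p = 0.0101), so that it was highest in iNKT2 cells. The second, at chr12:52879319-52879818, which holds a GATA match printed above, had falls of 3.22, 4.46 and 2.57 and read 3.47 and 3.44 in C57BL/6 iNKT2 cells. Each of the 6 was called higher in C57BL/6 iNKT2 than iNKT1 cells.

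The differences between subsets within C57BL/6 mice were not part of the rule, although the same libraries enter both. The highest C57BL/6 mean of a member was most often in iNKT2 cells, which does not make the member specific to them. Of the members, 60.0% had their highest C57BL/6 mean in iNKT2 cells, 22.4% in iNKT1 and 17.6% in iNKT17 cells, while all autosomal regions were spread as 32.5%, 35.8% and 31.7% over these subsets. Of the regions gained in all subsets, 20.2% were highest in iNKT2 cells. In limma, 237 of 565 tested members were called lower and 50 higher in iNKT1 than iNKT2 cells, 50.8% in all, where 16.0% of all tested regions were called and the directions were near even (4273 higher and 5082 lower). Between iNKT2 and iNKT17 cells, 280 of 569 were called higher and 52 lower in iNKT2 cells, 58.3% against 16.2% of all regions. Between iNKT1 and iNKT17 cells, 142 of 438 were called higher and 108 lower in iNKT1 cells, 57.1% against 20.5%. The median differences of the members were -1.13, 1.42 and 0.21 in this order. The members that were tested had to reach 5 insertions per kb in one of the groups, so these are not shares of all 607. In C57BL/6 iNKT2 cells 84.3% of members reached that level, but in iNKT1 cells 48.4% and in iNKT17 cells 47.6%. Of all autosomal regions 82.0% to 83.1% did so in each subset. Many members were thus tested through iNKT2 cells alone, which favours calls higher there. The called shares and directions are a description, without a like baseline. With a pseudocount of 5 on the linear values, 77, 102 and 103 members were called in these contrasts, in place of 287, 332 and 250.

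By these calls 152 members (25.0%) were higher in iNKT2 cells than in both other subsets, against 3.39% of autosomal regions. Another 45 were higher in iNKT1 and 46 in iNKT17 cells than in both others (7.41% and 7.58%, against 4.59% and 6.09%). Members lower in iNKT17 cells than in both others numbered 90 (14.8% against 2.39%), while 53 were lower in iNKT1 cells (8.73% against 2.64%) and 4 in iNKT2 cells (0.659% against 0.886%). In none of the 3 contrasts were 128 members called (21.1% against 70.6%). The limit set by the tested level holds for all of these counts. The order of the subsets was much the same in Hivep3-/- cells at a lower level, in means that the rule ties to those of C57BL/6 cells. There 55.2% of members were highest in iNKT2 cells, and the median difference between iNKT1 and iNKT2 cells was -1.08 and that between iNKT2 and iNKT17 cells 1.25. The difference had the same sign in Hivep3-/- cells in 281 of the 287 members called between iNKT1 and iNKT2 cells and in 330 of the 332 called between iNKT2 and iNKT17 cells. The like share over all regions called in these contrasts was not computed, so these counts are a description only.

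**Figure D4:**
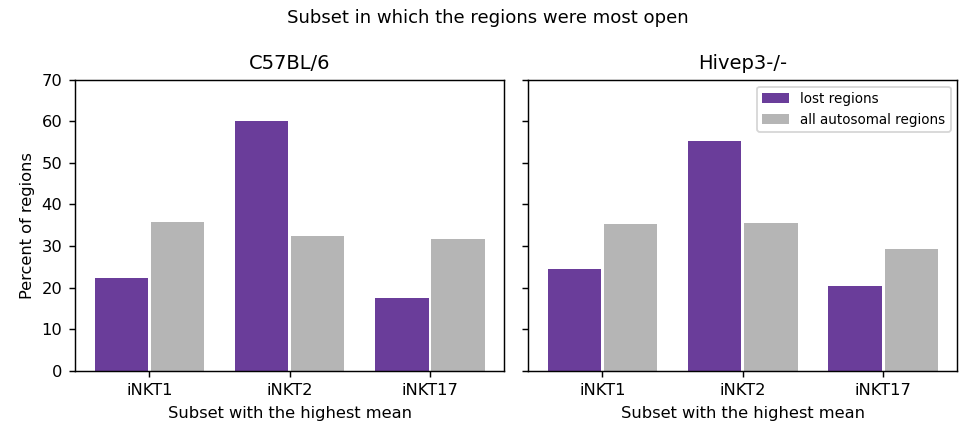
Share of regions (vertical axis, percent) whose highest group mean was in iNKT1, iNKT2 or iNKT17 cells, in C57BL/6 (left) and Hivep3-/- cells (right), for the 607 members (purple) and all autosomal regions (grey). In both genotypes a larger share of members than of all autosomal regions was highest in iNKT2 cells, at 60.0% and 55.2% against 32.5% and 35.6%.

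Few members lay at promoters. Within 1000 bp of a transcription start (GENCODE vM21) were 71 members, 11.7% (95% Wilson interval 9.4 to 14.5), against 37.8% of autosomal regions. Members that are neighbours are not independent, so such intervals are too narrow. Introns held 45.8% of members and 32.5% of autosomal regions, sequence between genes 31.8% and 22.9%, and exons 10.7% and 6.8%. The median distance to the start of a protein-coding gene was 17.9 kb for members and 5.49 kb for autosomal regions, and 13.0% and 5.29% lay over 100 kb away. The gained regions were also distal, with 14.4% at promoters and a median distance of 12.8 kb. The members were spread over all 19 autosomes. Chromosome 9 had the largest share of its regions among them, 59 of 3776 (1.56%), and chromosome 4, which carries Hivep3, the smallest, 21 of 3902 (0.538%).

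At protein-coding promoters there were 50 members. The strongest, that of Gm973 at chr1:59543910-59544409, was an iNKT2 region, reading 3.47 and 3.77 in C57BL/6 iNKT2 cells and 2.03 and 2.12 in Hivep3-/- iNKT2 cells. In the other 4 groups no library exceeded 0.82. The falls of this promoter were 1.72, 1.54 and 2.02, and in C57BL/6 mice it differed by -2.97 ± 0.64 between iNKT1 and iNKT2 cells (adjusted p = 0.00159).

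The promoters of Adarb1, which encodes an RNA-editing adenosine deaminase, Usp10, a deubiquitinase, and Prss23, a serine protease, had the same shape. The Adarb1 member at chr10:77368817-77369316 read 4.09 and 3.78 in C57BL/6 and 2.39 and 2.55 in Hivep3-/- iNKT2 cells. The Usp10 member at chr8:119948259-119948758 read 3.98 and 3.87 against 1.10 and 1.69, and the Prss23 member at chr7:89517846-89518345 4.01 and 3.87 against 2.47 and 3.00. All 3 were called higher in C57BL/6 iNKT2 than in iNKT1 and iNKT17 cells, with differences of iNKT1 from iNKT2 cells of -2.70 ± 0.50, -3.21 ± 0.76 and -3.17 ± 0.54 (adjusted p = 0.000578, 0.00316 and 0.000308). The promoter member of Etfbkmt, a mitochondrial protein methyltransferase gene, at chr6:149139004-149139503, was an iNKT1 region instead. It read 4.04 and 3.92 in C57BL/6 and 2.82 and 2.73 in Hivep3-/- iNKT1 cells, and exceeded C57BL/6 iNKT2 cells by 4.07 ± 0.92 (adjusted p = 0.00237). In iNKT17 cells its genotypes overlapped, with -0.59 and 1.31 in C57BL/6 and 0.74 and -2.58 in Hivep3-/- libraries, and 58.4% of its bases were soft-masked.

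Ccr9 encodes the receptor for the thymic and gut chemokine CCL25 and had a promoter member and a stronger member in an exon. The exon member at chr9:123768947-123769446 read 3.10 and 2.86 in C57BL/6 iNKT1, 2.92 and 3.11 in iNKT2 and -0.10 and 0.10 in iNKT17 cells. In Hivep3-/- cells it read 0.49 and -0.10, 0.90 and -0.41, and -3.06 and -2.58, with falls of 2.78, 2.77 and 2.82. The last pair is the lowest value of both libraries, so the size of the iNKT17 fall depends on that floor. The promoter member at chr9:123766937-123767436 read 1.82 and 1.69 in C57BL/6 iNKT1 cells, 3.32 in both iNKT2 libraries, and -0.78 and 0.35 in iNKT17 cells. Its falls were 1.57, 2.96 and 1.47. In iNKT17 cells the Hivep3-/- libraries (-0.78 and -2.58) touched the C57BL/6 range, so that subset did not separate the genotypes there. Both were called higher in C57BL/6 iNKT2 than iNKT17 cells.

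Drosha, the nuclease that starts microRNA processing, held 2 members in the gene body. They were the only members among 56 regions at the microRNA list (3.57%, against 0.976% of autosomal regions). The other genes listed were Dgcr8, Dicer1, Xpo5, Ago1, Ago2 and Tarbp2. So few regions cannot tell Drosha from them, and the study chose the genes it names, Drosha among them, partly on these libraries. The intron member at chr15:12928963-12929462 read 4.19 and 3.83 in C57BL/6 iNKT1, 2.98 and 2.83 in iNKT2 and 1.91 and 2.05 in iNKT17 cells. In Hivep3-/- cells it read 0.20 and -0.61, 0.90 and 1.02, and -1.52 and 0.19. The exon member at chr15:12925619-12926118 had falls of 3.58, 1.24 and 1.86. The genotypes did not overlap at either member.

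The members with the highest mean over the 6 C57BL/6 libraries are described next. The member 25.9 kb from Il10, the gene of an anti-inflammatory cytokine, at chr1:130993662-130994161, read 5.99 to 6.78 in the C57BL/6 libraries and 5.14 to 5.97 in the Hivep3-/- libraries, with falls of 0.61, 1.17 and 0.96. Including it, 4 members made up all the table's regions in 9.38 kb beside Il10. A member in an intron of Arid1a, a subunit of the SWI/SNF chromatin remodeller, at chr4:133706872-133707371, read 5.86 to 6.26 in C57BL/6 and 5.21 to 5.52 in Hivep3-/- libraries. The member 13.3 kb from Rnf7, which encodes a RING subunit of ubiquitin ligases, at chr9:96465037-96465536, read 5.76 to 6.29 and 5.02 to 5.48. In these 3 regions no difference between C57BL/6 subsets reached 3-fold.

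For the lists of iNKT and T cell genes, a region was counted for a gene in its body or within 10 kb. The list of iNKT2 genes had 3 members among 227 regions (1.32%, against 0.976% of autosomal regions), at Il4, Il13 and Lef1, and the lists of iNKT1 and iNKT17 genes had 0 of 109 and 0 of 162. There were 0 members at the 145 regions of the NF-κB pathway, 0 at 242 regions of cytokine receptors and STATs, 0 at 78 regions of survival genes and 0 at 71 regions of the Hivep family. The lists with 0 members, those of iNKT1 and iNKT17 genes included, hold too few regions to tell 0 from 0.976%. The lists of T cell receptor signalling (2 of 320), T cell transcription factors (3 of 485), chemokine receptors and egress (2 of 141, both at Ccr9) and SLAM receptors (1 of 77) held shares near that of all autosomal regions or too few regions to tell from it. The genes that the study names were chosen partly on these libraries, so their 6 of 193 (3.11%, at Ccr9, Drosha, Hdac7 and Il13) are not independent evidence. The member counted for Hdac7 lies in an exon of Vdr and counts only through the 10 kb flank. For Hdac7 the study reports higher transcript levels in the earliest Hivep3-/- precursors, which is not the direction of this fall. The median difference (C57BL/6 minus Hivep3-/-) over all regions of each list, members or not, lay between -0.16 and 0.22.

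At the type 2 cytokine genes, the Il4 promoter member at chr11:53618197-53618696 read 5.54 and 5.43 in C57BL/6 and 4.68 and 4.67 in Hivep3-/- iNKT2 cells. In iNKT1 cells it read 5.30 and 5.12 against 4.39 and 4.37, and in iNKT17 cells 2.35 and 2.27 against 0.74 and 1.93. The genotypes did not overlap, and the falls were 0.83, 0.81 and 0.98 for iNKT1, iNKT2 and iNKT17 cells. The region was higher in C57BL/6 iNKT2 than iNKT17 cells by 3.17 ± 0.28 (adjusted p = 1.06e-06). The most open promoter region of Il4, which is no member, read 5.73 in C57BL/6 and 5.78 in Hivep3-/- iNKT2 cells, 5.13 and 4.33 in iNKT1 cells and 4.83 and 4.13 in iNKT17 cells. The Il13 exon member at chr11:53633065-53633564 read 4.63 and 4.77 against 4.14 and 4.08 in iNKT2 cells, with a fall of 0.59 there. Among the transcription factors, the intron member of Lef1, an HMG-box factor of early T cells, at chr3:131170957-131171456, had falls of 1.02, 2.31 and 1.78. The intron members of Runx1 at chr16:92748262-92748761 and of Tox2 at chr2:163254549-163255048 had falls of 1.20, 1.21 and 0.93 and of 1.13, 2.55 and 0.82. Of the signalling genes, the member 12.2 kb from the nearest start of Nfatc1, a calcium-dependent factor, fell by 1.41, 1.44 and 1.01. The member 5.88 kb from Slamf7, a SLAM receptor, fell by 0.64, 1.13 and 1.14, and its Hivep3-/- iNKT17 libraries (0.19 and -2.58) overlapped those of C57BL/6 (0.06 and -0.17).

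The sequence of the members differed from other regions in GATA matches by more percentage points than in any other motif searched. The letters AGATAA, on either strand of the 500 bp, were in 234 members, 38.6% (95% Wilson interval 34.8 to 42.5), against 20.6% of autosomal regions. Outside promoters the shares were 39.4% and 24.9%, and in the central 250 bp 24.1% and 10.8%. Of the gained regions 23.6% held a match. The share was much the same in members that were not called higher in iNKT2 cells than in both others, 38.2% against 20.1% of other such regions. Outside promoters these shares were 39.2% and 24.4%. In members that were called higher in iNKT2 cells than in both others it was 39.5% against 30.3%. Members with and without the match had the same median fall (1.25 and 1.24, averaged over the subsets). A match is a set of letters in the window and says nothing of the factor bound there.

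The other motifs differed by fewer percentage points, although CTCF letters differed more as a ratio. TCF letters (ATCAAAG) were in 12.7% of members and 9.8% of autosomal regions outside promoters, RUNX letters (AACCACA) in 23.7% and 21.8%, bZIP letters in 22.4% and 19.5%, and NF-κB letters (GGGNNTTCC) in 10.4% and 8.6%. ETS letters (ACAGGAAG or ACCGGAAG) were less frequent in members, at 11.8% and 15.4%. CTCF letters (AGNGGGCGC) were in 3 members, 0.5% against 4.1% of autosomal regions, and in 0.71% of gained regions. SP/KLF letters (GGGCGG), which are common at promoters, were in 13.0% and 29.7%, and in 11.8% and 14.2% outside promoters. Outside promoters, E-box letters were in 78.7% and 76.6%, NFAT letters (TTTTCCA) in 12.3% and 11.1%, EGR letters (GCGTGGG) in 4.5% and 3.9%, and T-box letters (AGGTGTGA) in 4.5% and 3.5%. The median GC content of members was 47.8%, against 50.0% of autosomal regions, and outside promoters 47.6% and 47.8%.

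**Figure D5:**
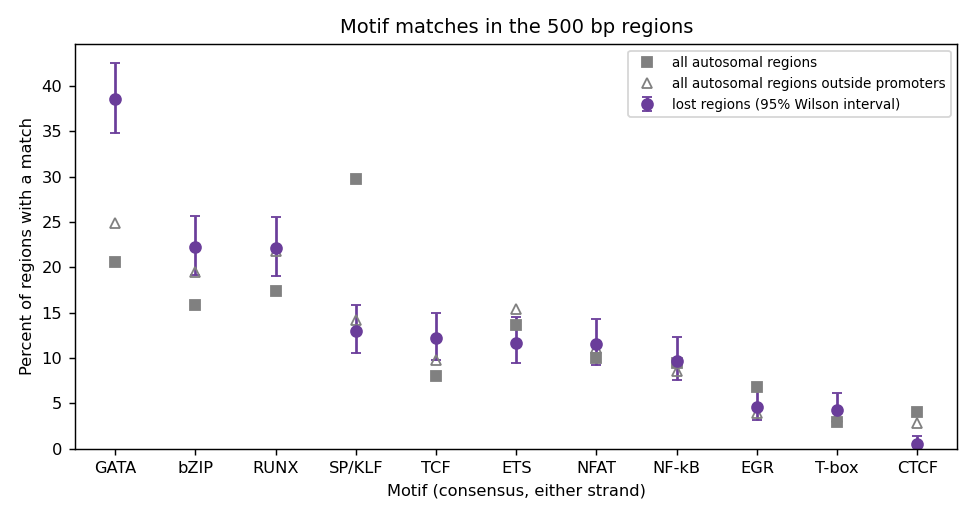
Share of regions with a match to each motif shown, on either strand (vertical axis, percent). The E-box and a motif not reported here are left out. Shares are for the 607 members (purple, bars give the 95% Wilson interval, which covers counting error only), all autosomal regions (grey squares) and those outside promoters (open triangles). The GATA share of members (38.6%) stands above both grey marks (20.6% and 24.9%), while the CTCF share (0.5%) lies under them (4.1% and 2.8%).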

How the data were processed

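The authors trimmed the reads to 50 bp with Trimmomatic (version 0.39 in the submitters' processing notes), mapped them to mm10 with the ENCODE ATAC-seq pipeline, merged peaks into regions of 500 bp, counted transposase insertions with chromVAR and normalised them with voom. The deposited values are log2 normalised insertions per kb, 1 for each region and library, and all 12 libraries were used. Counts were not used here, so depth is unknown and no counting error can be given for a level.

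Coordinates are 1-based on GRCm38.p6 with GENCODE vM21 genes. The 6 group means were fitted with limma 3.58.1 (R 4.3.3) over 12 libraries, with a trend of the variance on the level, after the fit had been tested on simulated data. Regions where at least 1 of both group means reached 5 insertions per kb were tested, with Benjamini-Hochberg adjustment over all of them, and adjusted p-values in the text are from this fit.

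The members, gene lists, motifs and the rule for named regions were chosen with earlier results of these data known. Named were the 8 members with the largest weakest fall, the 6 such members at protein-coding promoters, the 4 with the highest mean over the C57BL/6 libraries, the 3 chains with the most members (4 chains tied at 6, of which those with the larger mean fall were taken) with their 2 strongest members, the members at a gene list (the 2 strongest where a list held more than 3) and the 3 regions on either side of the threshold. Other regions named were chosen after their values were seen. For the chromosome 5 pair, short windows replace the central 300 bases. Some genes, sequences and a motif that these rules cover are not reported here.

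The titles give the subsets of a genotype the same mouse number, and the deviations of same-numbered libraries from their group means correlated at 0.12 to 0.167 within a genotype and at 0.0911 to 0.174 between genotypes. These ranges overlap, so the correlations do not show a pairing by mouse. The blocked fit between subsets took genotype and number as the block. Between genotypes the block was the number alone, which joins libraries of different mice. Neither blocked fit moved a count of members called by over 1.5 times.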

Additional observations from a re-analysis of the deposited data

How the results depend on the processing

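The number of members depended most on the size of the fall and on the constant under the logarithm. A fall of 2-fold in each subset left 175 regions and one of 3-fold 42, and a pseudocount of 1 left 297 and of 5 left 49. Requiring the fall in each same-numbered pair of libraries, a replicate block by construction, left 238. Without a level minimum (607), with a minimum of log2 of 10 (438), after renewed quantile normalisation (614, of which 589 are members) or without single libraries (581 to 638), the number stayed within 1.5 times.

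Counts of members called lower in Hivep3-/- cells, for iNKT1, iNKT2, iNKT17 and the average, were 46, 158, 41 and 156. With a pseudocount of 5 they were 6, 25, 4 and 4, and with 1 they were 26 in iNKT17 cells and 35 on the average. With 2-fold they were 112, 246, 94 and 425, and with no filter 138 in iNKT1 and 100 in iNKT17 cells. Leaving out single libraries gave 30 to 41, 110 to 139, 27 to 47 and 154 to 176; the lowest were without the second Hivep3-/- iNKT1 library (30) and the first C57BL/6 iNKT17 library (27). Between the C57BL/6 subsets, a pseudocount of 5 gave 77 (iNKT1 against iNKT2), 103 (iNKT1 against iNKT17) and 102 (iNKT2 against iNKT17) in place of 287, 250 and 332, and single libraries left out gave 275 to 280, 241 to 249 and 311 to 324. The replicate block gave 51, 168, 45 and 156 between genotypes, where same-numbered libraries share no mouse (deviations correlated with 0.171, 0.145 and 0.113), and 287, 250 and 334 between subsets.

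With promoters taken within 250 bp, 6.59% of members lay at one. Neighbours within 20 kb put 25.9% of members in chains, and within 1 Mb 67.5%.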
